A study of Mus musculus with 5 samples.

Results

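Structural RNAs are the non-coding RNAs that build or serve the ribosome, the spliceosome, the nucleolus and other RNA and protein particles. They were taken from a table of repeat elements as the rows of the classes rRNA, snRNA, scRNA, srpRNA, tRNA and RNA, and all rows of these classes were kept, 83 of the 1221 in the table. There were 3 rRNA rows, 12 snRNA rows, 6 scRNA rows, 1 srpRNA row, 60 tRNA rows and 1 row of the class RNA, which is 7SK. Of the 83, 32 passed the filter for testing, which asks for enough reads in at least 1 library relative to its size. Some tested rows therefore held fewer reads in all than some untested ones. These were all 3 rRNA rows, 9 snRNA rows, 4 scRNA rows, the srpRNA row, 14 tRNA rows and 7SK. The other 51 held between 0 and 50.5 reads over all 5 libraries together, with a median of 10.7, and no change is reported for them. The 6 defining members, U1, U4, U17, HY3, 7SLRNA and LSU-rRNA_Hsa, were all tested.

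The study put hairpins against Trim28 or Wtx into mouse ES-D3 cells, an embryonic stem cell line, and counted their RNA on the Helicos platform, which reads single molecules without amplification. The 2 shTrim28 libraries carried a hairpin each, against different stretches of Trim28, and the 2 libraries labelled shWtx a hairpin each against nearly the same stretch of Wtx. The control was 1 library, labelled shGFP. In every group, the control included, cells took up a lentiviral hairpin, were kept in puromycin and grew with LIF on γ-irradiated feeders. Most feeders were removed by a short replating step ahead of RNA extraction on RNeasy MinElute columns. KRAB zinc finger proteins recruit the corepressor Trim28 to DNA. Wtx, in the gene table under its older symbol Fam123b, belongs to the complex that degrades β-catenin.

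RNA polymerase I makes the precursor of the large ribosomal RNAs in the nucleolus, RNA polymerase II makes most spliceosomal RNAs from genes of their own, and RNA polymerase III makes 5S, tRNA, U6, 7SK, the 7SL RNA of the signal recognition particle and the Y RNAs. U14 and U17 are small nucleolar RNAs that are cut out of the introns of host transcripts made by polymerase II, and both take part in the early cleavage of the ribosomal RNA precursor. By polymerase, 2 rows belonged to polymerase I, 9 to polymerase II with a gene of their own, 2 to polymerase II through a host intron and 70 to polymerase III. The tRNA rows marked (m), mitochondrial by their names, were kept among the 70 and in the polymerase III sums.

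The results turn on RNAs with short, known sequences, shown here to set the intron-cut U17 and U14 beside the polymerase II product U1 and the polymerase III products HY1 and HY3. The sequences are annotated mouse genes from GENCODE M21 on GRCm38, whereas the reads were assigned to Repbase consensus sequences and cannot be traced to a single copy. Both annotated copies of U17 are on the minus strand of chromosome 4, Snora73a at chr4:132352775-132352979 and Snora73b at chr4:132352322-132352526. They lie inside Rcc1 and Snhg3 on the same strand, where Snora73a overlaps an annotated exon of Snhg3 and Snora73b is intronic. The copies share 198 of 205 bases, and capitals mark the ACA that stands 3 bases before the end, the box that names this class. An ACA at that place was found in 18.3% of 1507 annotated snoRNA transcripts.
Snora73a: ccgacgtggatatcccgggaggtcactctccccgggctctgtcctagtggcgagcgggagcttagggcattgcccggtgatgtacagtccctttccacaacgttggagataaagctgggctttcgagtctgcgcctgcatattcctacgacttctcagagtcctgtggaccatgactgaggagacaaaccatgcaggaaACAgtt
Snora73b: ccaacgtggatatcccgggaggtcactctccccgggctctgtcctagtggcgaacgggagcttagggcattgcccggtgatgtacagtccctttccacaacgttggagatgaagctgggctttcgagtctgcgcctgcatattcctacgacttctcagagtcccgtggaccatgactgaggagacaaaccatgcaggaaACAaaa
U14 has copies in introns of a ribosomal protein gene and of a chaperone gene. Snord14a lies in Rps13 on the minus strand at chr7:116333171-116333257 and Snord14c in Hspa8 on the plus strand at chr9:40803583-40803668, and an annotated exon of the host gene overlaps each. Capitals mark the C box TGATGA, found in 26.1% of the snoRNA transcripts, and the D box CTGA, found in the last 20 bases of 35.4%.
Snord14a: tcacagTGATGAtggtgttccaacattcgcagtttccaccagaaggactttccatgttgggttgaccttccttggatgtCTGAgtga
Snord14c: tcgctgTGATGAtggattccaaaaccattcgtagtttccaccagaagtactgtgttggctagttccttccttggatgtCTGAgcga
U1 recognises the start of introns with its first bases. The copy Rnu1a1 is on the plus strand at chr11:87422867-87423030, in an intron of Tex14. Capitals mark the site ATTTNTGG to which the ring of Sm proteins binds, which 7.52% of 1383 annotated snRNA transcripts hold.
Rnu1a1: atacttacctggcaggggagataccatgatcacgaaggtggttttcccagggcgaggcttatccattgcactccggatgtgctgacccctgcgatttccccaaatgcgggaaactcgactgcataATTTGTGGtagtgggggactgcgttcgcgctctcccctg
The Y RNAs end in a run of T, TTTT, marked in capitals, where polymerase III stops. Such an end was found in 2.83% of the 566 transcripts of the biotype misc_RNA, to which the Y RNAs belong. Rny1 on the minus strand at chr6:47788069-47788180 and Rny3 on the plus strand at chr6:47781624-47781725 are neighbours outside any other gene on their strand.
Rny1: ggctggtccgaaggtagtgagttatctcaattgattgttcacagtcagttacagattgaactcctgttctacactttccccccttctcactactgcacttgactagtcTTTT
Rny3: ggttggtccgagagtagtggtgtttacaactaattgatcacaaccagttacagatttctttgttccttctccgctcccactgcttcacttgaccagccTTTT
Motifs were searched on the transcript strand only, and a match is a description of the sequence.

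Gene totals ran from 280614 to 1901563 estimated counts per library and repeat totals from 337226 to 2078315, with shTrim28 replicate 1 the shallowest and shTrim28 replicate 2 the deepest in both. Levels are given as CPM, the usual count-per-1000000 scale with the effective gene reads of the library as the total. Trim28 stood at 63.5 and 48.4 CPM in the shTrim28 libraries, 400 and 396 CPM in the libraries labelled shWtx and 783 CPM in shGFP, whereas Fam123b was not detectably lower in the libraries labelled shWtx (log2 0.65 against shGFP, SE 0.63, edgeR adjusted p = 0.508). Libraries of a target carried different hairpins, so the p-values measure a spread between hairpins, which may be partly technical. That spread was estimated by edgeR mostly from all rows of a table together, and little from the hairpins of a single row. The single control was assumed to vary like the hairpin libraries. Chemoreceptor genes, which neither embryonic stem cells nor fibroblasts are known to use, summed to 1695 and 1214 CPM in shTrim28, 3312 and 2882 CPM in shWtx and 295 CPM in shGFP, with 1067 of 1211 of them at 0 in shGFP. The 8 embryonic stem cell markers summed to 1513 and 1463 CPM in shTrim28, 2575 and 2845 CPM in shWtx and 5388 CPM in shGFP, and none of them was at 0 in shGFP. The 10 feeder fibroblast markers summed to 1154 and 1309 CPM in shTrim28, 480 and 506 CPM in shWtx and 452 CPM in shGFP, with 1 at 0 in shGFP. The part of these differences in the results below was not tested. Fewer cells of a type and less RNA per cell cannot be told apart in such bulk libraries.

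At the median, and relative to gene reads, the structural RNAs had smaller differences from shGFP than the repeats as a whole. In shTrim28 against shGFP the median log2 fold change was 0.48 over the 32 structural RNAs and 1.15 over all 900 repeats tested. In the libraries labelled shWtx against shGFP it was 0.11 over the structural RNAs and 2.21 over all repeats. In shTrim28 against shWtx the median was 0.00 over the structural RNAs and −1.05 over all repeats. Without a filter on low counts the structural medians were 0.208, 0.348 and −0.125 in these comparisons in turn. Those of all repeats were then 1.15, 2.21 and −1.04. The order of shTrim28 and shWtx in the structural median thus depended on the filter. Both comparisons with shGFP share that library, so they are not independent of each other.

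As sums, structural RNAs made up 42.8% and 56.8% of the repeat reads in the shTrim28 libraries, 24.4% and 24.9% in the libraries labelled shWtx and 47.1% in shGFP. Relative to gene reads the same sum was 1.47 and 1.85 times that of shGFP in shTrim28, and 1.05 and 0.951 times in shWtx. The repeats outside the structural RNAs stood at 1.74 and 1.25 times the shGFP level in shTrim28 and at 2.90 and 2.55 times in shWtx. The structural RNA sum was thus highest in both shTrim28 libraries, while the sum of the other repeats was highest in both shWtx libraries.

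**Figure D1:**
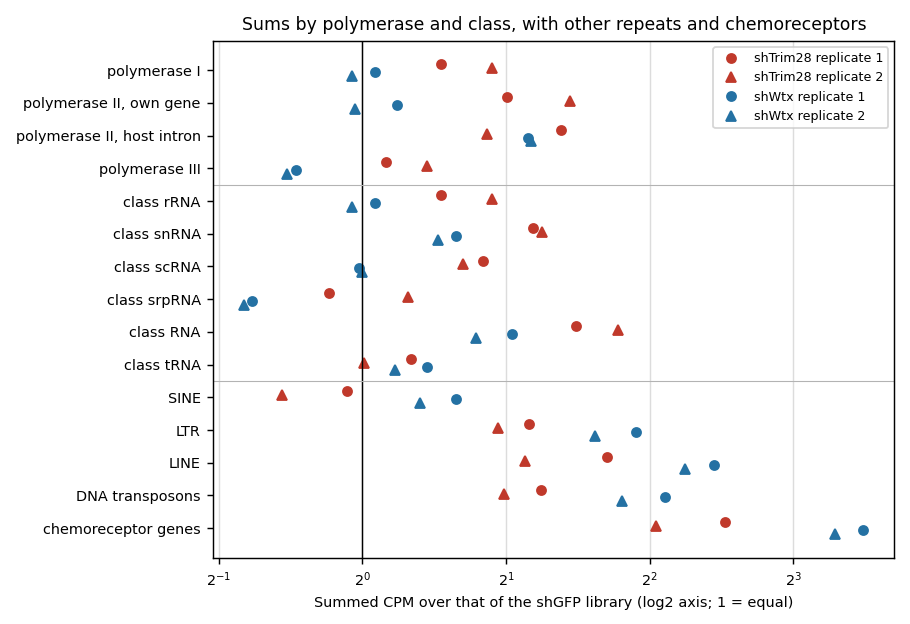
Summed CPM of structural RNAs by polymerase and by class in the 4 shTrim28 and shWtx libraries, divided by the shGFP level (log2 axis), with other repeats and chemoreceptor genes below for comparison. For polymerases I and III and for polymerase II with a gene of its own, both shTrim28 libraries lie to the right of both shWtx libraries, and for LTR, LINE, DNA transposon and chemoreceptor sums both lie to the left.

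In shTrim28 against shGFP, 7SK, U4 and the large ribosomal RNA were higher and U17 was lower, of which the large ribosomal RNA lay below shGFP instead when libraries were scaled by the repeats. These are 3 of 32 structural RNAs higher and 1 lower at an edgeR adjusted p under 0.05, beside 20.9% of all repeats tested higher and 0.111% lower. U17 was the 1 repeat of 900 called lower. In the libraries labelled shWtx against shGFP, 6 of 32 were higher, U14 and 5 tRNA elements, and 2 were lower, U17 and HY3, beside 82.2% of all repeats higher and 0.333% lower. Several of these tRNA elements entered the test only through shTrim28 or shWtx libraries, as given below. U17 and HY3 were 2 of the 3 repeats called lower, the other being the simple repeat (CGGAG)n. With so many repeats past the threshold the adjusted p lay close to the unadjusted one there. In shTrim28 against shWtx, 7 of 32 were higher and 1 was lower, beside 1.33% of all repeats higher and 66% lower. The 7 structural RNAs were among 12 repeats called higher in all.

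Part of these calls changed with the scaling between libraries. Scaled by the repeats themselves in 3 ways (TMM, DESeq2 size factors or DNA transposon counts), the median of all repeats lay between −0.20 and 0.23 in each comparison, and the structural RNAs, relative to it, were low in shTrim28 and in shWtx against shGFP. U17 and HY3 in shWtx and U17 in shTrim28 were called lower under every scaling. U14 and 4 of the 5 tRNA elements called in shWtx turned negative under TMM of the repeats, and LSU-rRNA_Hsa in shTrim28 turned negative under all 3. In shTrim28, 7SK and U4 had log2 fold changes between 0.28 and 0.60, none past the threshold. In shTrim28 against shWtx the differences of U1, U4, 7SLRNA and both large rRNAs were larger, from 1.55 to 2.37, but the calls of U1, 7SLRNA and both rRNAs were lost in all 3 ways (adjusted p from 0.0512 to 0.0776).

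The counts rest on few libraries. In shTrim28 against shGFP 0 structural RNAs were called by edgeR without shTrim28 replicate 1 (14 at an unadjusted p under 0.05), 0 without either shWtx library (2 at that p in each case) and 9 without shTrim28 replicate 2. In shWtx against shGFP 0 were called without shWtx replicate 1 (0 at that p) and 2 without shWtx replicate 2. In shTrim28 against shWtx 0 were called without shTrim28 replicate 2 (8 at that p) and without either shWtx library (0 at that p). Counted without a test, in shTrim28 against shWtx, both shTrim28 libraries lay above both shWtx libraries for 13 of the 32 structural RNAs, beside 3.56% of all repeats, and below both for 6 of 32, beside 82.2%. Both shTrim28 libraries lay above shGFP for 18 of 32, beside 82.1%, and below it for 9, beside 4.67%. Both shWtx libraries lay above shGFP for 15 of 32, beside 92.7%, and below it for 8, beside 3.56%. All 4 shTrim28 and shWtx libraries lay above shGFP for 13 of 32, beside 80.6%, and below it for 5, beside 1.56%. The 5 were BC1_Mm, HY1, HY3, U17 and tRNA-Glu-GAG_. For all of these but U17, at least 1 library had a 95% counting interval that overlapped that of shGFP. HY1 stood at 123 CPM in shTrim28 replicate 2 against 125 CPM in shGFP. BC1_Mm stood at 988 CPM in shWtx replicate 1 against 1001 CPM.

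**Figure D2:**
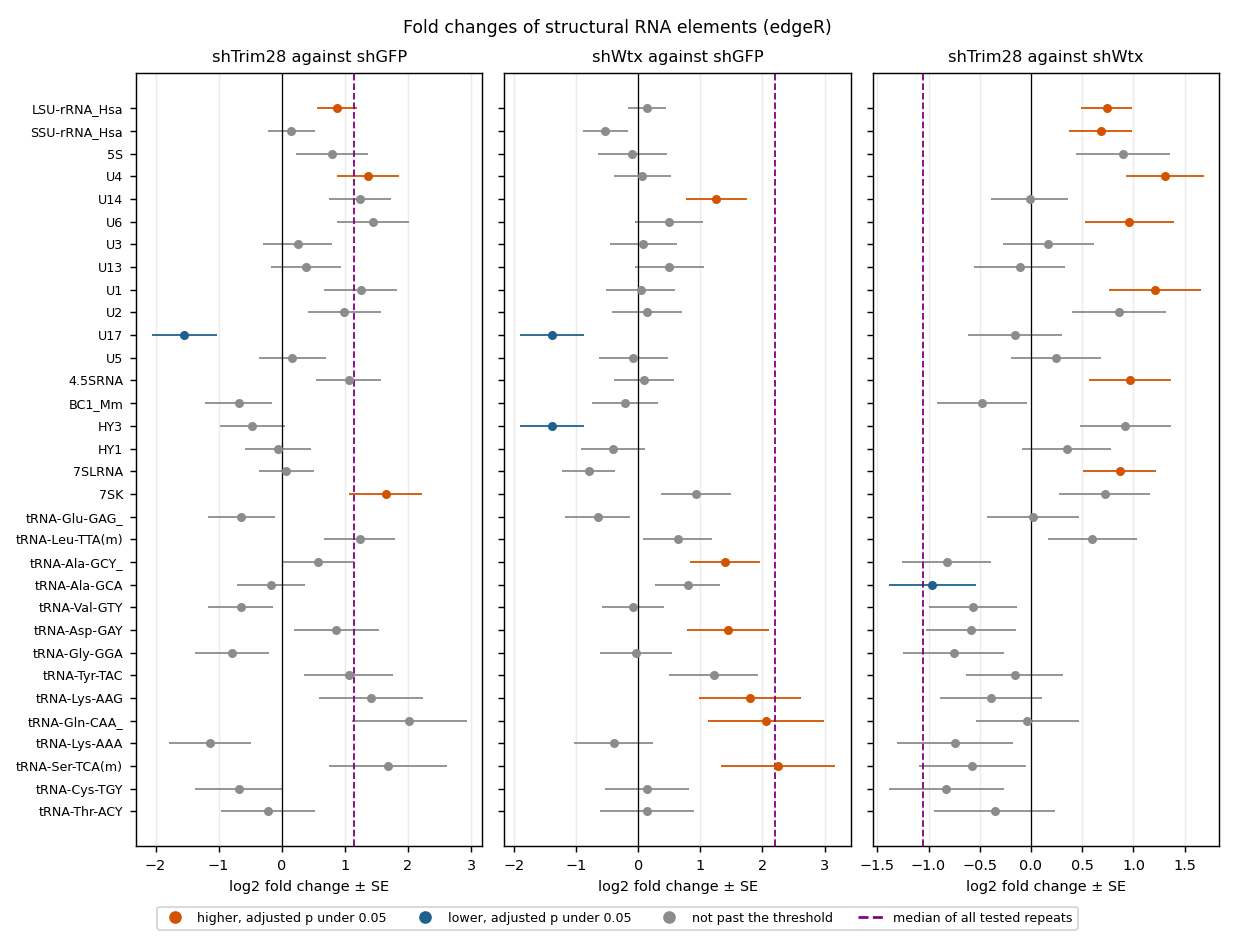
Log2 fold changes with standard errors of the 32 structural RNA elements tested, by class, in the 3 comparisons. The dashed line is the median of all 900 repeats tested, at 1.15, 2.21 and −1.05. U17 lies left of zero in both comparisons with shGFP, and in shTrim28 against shWtx all 32 elements lie to the right of the dashed line.

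LSU-rRNA_Hsa, the large subunit ribosomal RNA under the name of its human consensus, stood at 402034 and 504049 CPM in the shTrim28 libraries, 287448 and 256037 CPM in the libraries labelled shWtx and 247724 CPM in shGFP. Both shTrim28 libraries were above every other library, and both shWtx libraries were slightly above the control. It was higher in shTrim28 than in shGFP by log2 0.87 (SE 0.32, edgeR adjusted p = 0.0371) and than in shWtx by 0.74 (SE 0.25, adjusted p = 0.0171), whereas shWtx against shGFP gave 0.13 (SE 0.31, adjusted p = 0.686). The call against shGFP was lost with DESeq2 size factors of the gene table (0.71, adjusted p = 0.0774) and with DESeq2's Wald test (adjusted p = 0.0694). SSU-rRNA_Hsa, the small subunit ribosomal RNA from the same precursor, stood at 64530 and 93025 CPM in shTrim28, 50590 and 47722 CPM in shWtx and 70950 CPM in shGFP. Here the control lay between the shTrim28 libraries and above both shWtx libraries. Only the comparison of shTrim28 with shWtx passed the threshold (log2 0.68, SE 0.31, adjusted p = 0.0429), with 0.15 for shTrim28 against shGFP (adjusted p = 0.755) and −0.53 for shWtx against shGFP (adjusted p = 0.170).

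Both subunit RNAs are cut from a single precursor, and their ratio within a library does not depend on any scaling between libraries. There were 6.23 and 5.42 LSU reads per SSU read in shTrim28, 5.68 and 5.37 in shWtx and 3.49 in shGFP. All 4 shTrim28 and shWtx libraries lay above the control by more than counting error, since the exact 95% intervals ran from 5.28 up to 6.33 in the shTrim28 and shWtx libraries and from 3.45 to 3.53 in shGFP. The ratio is one of reads and is not corrected for length, it was chosen after the values were seen, and it was not tested. 5S, the ribosomal RNA made by polymerase III, stood at 546 and 368 CPM in shTrim28, 256 and 229 CPM in shWtx and 260 CPM in shGFP. Both shTrim28 libraries were above the rest, but no comparison passed the threshold (log2 0.80 for shTrim28 against shGFP, adjusted p = 0.255, and 0.90 for shTrim28 against shWtx, adjusted p = 0.0668).

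Of the spliceosomal RNAs, U1, U4 and U6 were higher in shTrim28 than in shWtx, and U2 and U5 did not pass. U4, which pairs with U6 and holds it inactive until the spliceosome is assembled, stood at 12706 and 18327 CPM in the shTrim28 libraries, 6853 and 5719 CPM in the libraries labelled shWtx and 5997 CPM in shGFP. The shTrim28 libraries were above all others, and the control lay between the shWtx libraries. U4 was higher in shTrim28 than in shGFP by log2 1.37 (SE 0.49, edgeR adjusted p = 0.0365) and than in shWtx by 1.30 (SE 0.38, adjusted p = 0.00882).

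U1, which marks the start of introns, stood at 748 and 1117 CPM in shTrim28, 364 and 445 CPM in shWtx and 394 CPM in shGFP. The groups fell as for U4, with the control between the shWtx libraries. U1 was higher in shTrim28 than in shWtx by log2 1.21 (SE 0.45, edgeR adjusted p = 0.0241), and the 1.25 in shTrim28 against shGFP did not pass (SE 0.57, adjusted p = 0.0837).

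U6, the catalytic RNA of the spliceosome and a polymerase III product, stood at 1695 and 1229 CPM in shTrim28, 825 and 672 CPM in shWtx and 533 CPM in shGFP. The shTrim28 libraries did not overlap with the shWtx libraries, and all 4 were above the control. U6 was higher in shTrim28 than in shWtx by log2 0.96 (SE 0.44, edgeR adjusted p = 0.0438, lost when any 1 of the 5 libraries was left out, with adjusted p from 0.0513 to 0.402), and in shTrim28 against shGFP it missed the threshold narrowly with 1.45 (SE 0.57, adjusted p = 0.0501). U2 and U5, the other spliceosomal RNAs tested, passed in no comparison, and their log2 fold changes for shTrim28 against shWtx were 0.86 and 0.25. Against shGFP, U1, U2, U4, U5 and U6 lay between −0.08 and 0.49 in the libraries labelled shWtx.

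**Figure D3:**
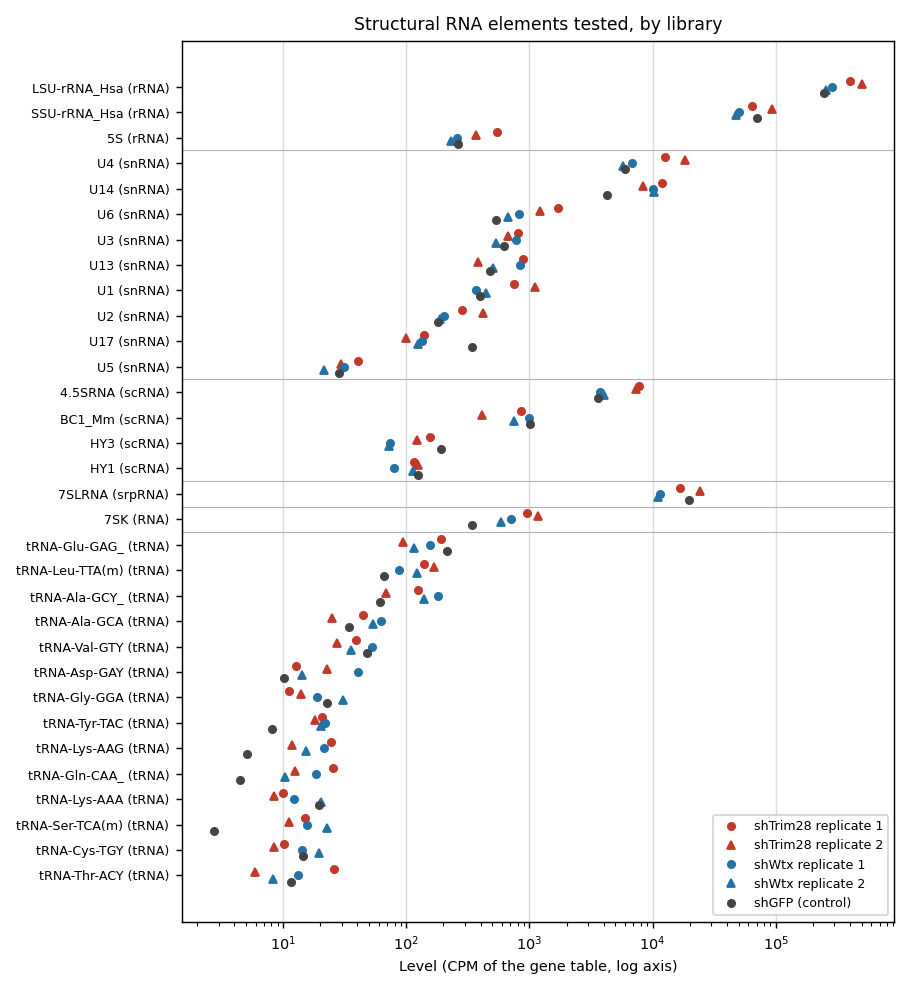
Levels of the 32 structural RNA elements tested in each of the 5 libraries, in CPM on a log axis, grouped by class. U17 is lower in the 4 shTrim28 and shWtx libraries (99.4 to 139 CPM) than in shGFP (338 CPM), and U4, U1 and U6 are higher in both shTrim28 libraries than in the other 3.

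Of the small nucleolar RNAs cut from introns, U17 was lower in shTrim28 and in shWtx and U14 higher in shWtx, each against shGFP, and that of U14 only when scaled by gene reads. U17 stood at 139 and 99.4 CPM in the shTrim28 libraries, 135 and 123 CPM in the libraries labelled shWtx and 338 CPM in shGFP. All 4 shTrim28 and shWtx libraries were between 0.294 and 0.410 times the control, and the shTrim28 and shWtx libraries overlapped. The reads behind these levels were 38.2, 177, 97.3 and 44.7 in the shTrim28 and shWtx libraries and 189 in shGFP, and the exact 95% Poisson intervals were at most 189 CPM in the shTrim28 and shWtx libraries and at least 292 CPM in shGFP. U17 was lower in shTrim28 than in shGFP by a log2 fold change of −1.54 (SE 0.52, edgeR adjusted p = 0.0304) and in shWtx by −1.39 (SE 0.52, adjusted p = 0.0105), with −0.16 in shTrim28 against shWtx (SE 0.45, adjusted p = 0.748). It was the 1 structural RNA called in both comparisons with shGFP, which share that library. When libraries were scaled by the repeats themselves, U17 was lower still in both (−2.66 to −2.63 in shTrim28 and −3.52 to −3.36 in shWtx, adjusted p from 0.00206 to 0.0137). The calls were lost without either shWtx library in both comparisons (adjusted p from 0.155 to 0.235) and without shTrim28 replicate 1 in that of shTrim28 (adjusted p = 0.0724). The log2 fold changes over all these omissions lay between −1.77 and −1.30.

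U14 stood at 11915 and 8310 CPM in shTrim28, 10130 and 10283 CPM in shWtx and 4278 CPM in shGFP. Every shTrim28 and shWtx library was at least 1.94 times the control, and the shTrim28 libraries lay on both sides of the shWtx libraries. U14 was higher in shWtx than in shGFP by log2 1.25 (SE 0.49, edgeR adjusted p = 0.0149), and the 1.24 of shTrim28 narrowly missed (SE 0.49, adjusted p = 0.0516). Scaled by the repeats themselves, U14 in shWtx reversed to between −0.86 and −0.70 (adjusted p from 0.0296 to 0.131). Without either shWtx library its call was lost (adjusted p = 0.192 and 0.220).

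Host transcripts of these small nucleolar RNAs are counted in the gene table, where the ribosomal protein genes and Hspa8 have many processed pseudogenes, so their reads may be shared. Annotated host exons overlap Snord14a and Snord14c, so reads may also be shared between U14 and its hosts, which was not tested. Hspa8, a constitutive chaperone whose introns hold copies of U14, stood at 13854 and 9623 CPM in shTrim28, 11547 and 12224 CPM in shWtx and 6572 CPM in shGFP. Against shGFP, Hspa8 was 2.11 and 1.46 times as high in shTrim28 and 1.76 and 1.86 times in shWtx. U14 was 2.79 and 1.94 times as high in shTrim28 and 2.37 and 2.40 times in shWtx. U14 and Hspa8 thus had the same order over the 5 libraries, but the 95% counting intervals of U14 overlapped between the shWtx libraries. Hspa8 passed the threshold in neither comparison (log2 0.84 ± 0.30, edgeR adjusted p = 0.0978, in shTrim28, and 0.85 ± 0.30, adjusted p = 0.0504, in shWtx, ± SE), but it passed in both without shTrim28 replicate 2 (adjusted p = 0.00366 and 0.00265). Rps13, the other host, was 0.713 and 1.01 times the control in shTrim28 and 0.483 and 0.585 times in shWtx, and it was lower in shWtx than in shGFP (log2 −0.91, SE 0.27, adjusted p = 0.0218). Rcc1, which surrounds the U17 copies and encodes the exchange factor of Ran, stood at 48.6 and 47.3 CPM in shTrim28, 36.8 and 49.1 CPM in shWtx and 64.1 CPM in shGFP. All 4 libraries were below the control, and neither comparison passed (log2 −0.45 with an adjusted p of 0.548 in shTrim28, and −0.61 with 0.298 in shWtx). U3 and U13, which have genes of their own in the nucleolar group, passed in no comparison, with log2 fold changes between −0.11 and 0.50.

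The Y RNAs, made by polymerase III, bind the Ro protein. HY3 stood at 155 and 123 CPM in the shTrim28 libraries, 73.8 and 72.1 CPM in the libraries labelled shWtx and 189 CPM in shGFP. Each shTrim28 and shWtx library was below the control, and both shWtx libraries were below both shTrim28 libraries. HY3 was lower in shWtx than in shGFP (log2 −1.39, SE 0.52, edgeR adjusted p = 0.0104), and this call was lost without either shWtx library (adjusted p = 0.161 and 0.130). In shTrim28 it was −0.47 against shGFP (SE 0.51, adjusted p = 0.460), and the difference of shTrim28 against shWtx did not pass (0.92, SE 0.45, adjusted p = 0.0569). HY1 stood at 115 and 123 CPM in shTrim28, 78.5 and 112 CPM in shWtx and 125 CPM in shGFP, and no comparison passed. There were 1.34 and 0.995 HY3 reads per HY1 read in shTrim28, 0.930 and 0.634 in shWtx and 1.51 in shGFP. All but shWtx replicate 2 had an exact 95% interval that overlapped that of the control, which ran from 1.11 to 2.08. HY4 was listed at 0 in all libraries and HY5 at 0.147 reads in all.

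7SLRNA, the RNA scaffold of the signal recognition particle, stood at 16680 and 24514 CPM in shTrim28, 11525 and 11111 CPM in shWtx and 19634 CPM in shGFP. The control lay between the shTrim28 libraries and above both shWtx libraries. It was higher in shTrim28 than in shWtx by log2 0.86 (SE 0.36, edgeR adjusted p = 0.0332), while shTrim28 against shGFP gave 0.07 (adjusted p = 0.900) and shWtx against shGFP −0.79 (SE 0.43, adjusted p = 0.0740). Without either shTrim28 library, or scaled by DESeq2 size factors of the gene table, 7SLRNA passed as lower in shWtx than in shGFP (adjusted p from 0.0150 to 0.0179). 4.5SRNA, a rodent RNA related in sequence to B1 repeats, stood at 7757 and 7374 CPM in shTrim28, 3733 and 4025 CPM in shWtx and 3635 CPM in shGFP. The shTrim28 libraries were about level with each other and above the other 3. It was higher in shTrim28 than in shWtx by 0.96 (SE 0.40, adjusted p = 0.0327), and the 1.06 against shGFP did not pass (SE 0.51, adjusted p = 0.0914). Reads of 4.5SRNA, 7SLRNA and BC1_Mm may be shared with the SINE repeats that resemble them.

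7SK, which holds the elongation factor P-TEFb inactive, stood at 955 and 1169 CPM in shTrim28, 702 and 589 CPM in shWtx and 341 CPM in shGFP. All 4 shTrim28 and shWtx libraries were above the control, and the shTrim28 libraries were above the shWtx libraries. It was higher in shTrim28 than in shGFP by log2 1.64 (SE 0.58, edgeR adjusted p = 0.0358), and the 0.93 of shWtx did not pass (SE 0.57, adjusted p = 0.117), nor did the 0.72 of shTrim28 against shWtx (SE 0.44, adjusted p = 0.122). BC1_Mm, a dendritic RNA of neurons in the adult, stood at 851 and 410 CPM in shTrim28, 988 and 743 CPM in shWtx and 1001 CPM in shGFP. It passed in no comparison, and shTrim28 replicate 2 stood apart as the lowest library.

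The tRNA elements were covered by few reads. In shTrim28 against shWtx the median of the 14 tested had the opposite sign to those of the other classes. Some of the 14 were tested only because of a shWtx library. Their sum stood at 899 and 714 CPM in shTrim28, 971 and 832 CPM in shWtx and 709 CPM in shGFP, so the shTrim28 and shWtx libraries overlapped. In shTrim28 against shGFP none of the 14 tested passed edgeR's test (2 at an unadjusted p under 0.05), beside 20.9% of all repeats higher, with a median log2 fold change of 0.20. In shWtx against shGFP 5 were higher and 0 lower, beside 82.2% of all repeats higher, with a median of 0.71. A row entered the test if any 1 library held enough reads for its size. tRNA-Ser-TCA(m) and tRNA-Cys-TGY entered through shWtx replicate 2 alone (22.8 and 19.6 CPM). tRNA-Gln-CAA_, tRNA-Lys-AAG and tRNA-Asp-GAY entered only through shTrim28 or shWtx libraries. In shGFP tRNA-Ser-TCA(m), tRNA-Gln-CAA_, tRNA-Lys-AAG and tRNA-Asp-GAY stood at 2.75, 4.48, 5.10 and 10.1 CPM in turn. The calls of these elements and the medians over the 14 are therefore not independent of that selection. Set against shWtx, shTrim28 had 0 higher and 1 lower, beside 66% of all repeats lower, with a median of −0.57, against class medians between 0.25 and 0.86 for the rest of the structural RNAs. Chemoreceptor reads were 5.75 and 4.12 times the control in shTrim28 and 11.2 and 9.78 times in shWtx, and their part in the tRNA result was not tested.

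tRNA-Ala-GCY_ stood at 125 and 67.7 CPM in shTrim28, 181 and 139 CPM in shWtx and 60.7 CPM in shGFP. The shWtx libraries were the highest, and shTrim28 replicate 2 was close to the control. It was higher in shWtx than in shGFP by log2 1.40 (SE 0.56, edgeR adjusted p = 0.0181). tRNA-Ala-GCA stood at 44.7 and 24.7 CPM in shTrim28, 62.3 and 53.8 CPM in shWtx and 34.4 CPM in shGFP, and it was the 1 structural RNA lower in shTrim28 than in shWtx (−0.97, SE 0.42, adjusted p = 0.0393). tRNA-Asp-GAY stood at 12.6 and 22.5 CPM in shTrim28, 40.1 and 14.1 CPM in shWtx and 10.1 CPM in shGFP, and its change in shWtx (1.45, SE 0.66, adjusted p = 0.0347) came with replicate 2 of that group close to the control and was lost without shTrim28 replicate 1 (adjusted p = 0.0885).

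The other 3 tRNA elements called in shWtx had 2 or 3 rounded reads in shGFP. tRNA-Gln-CAA_ had 29 reads in shTrim28 and 17 in shWtx against 2 in shGFP, pooled ratios per effective gene read of 3.93 (exact 95% interval 0.995 to 34.0) in shTrim28 and 4.37 (1.04 to 39.0) in shWtx. tRNA-Lys-AAG had 28 and 21 against 3, ratios of 2.53 (0.782 to 13.02) in shTrim28 and 3.60 (1.07 to 18.8) in shWtx. tRNA-Ser-TCA(m), a mitochondrial tRNA by its name and so made by the mitochondrial polymerase, had 24 and 19 against 2, ratios of 3.26 (0.809 to 28.4) in shTrim28 and 4.88 (1.18 to 43.2) in shWtx. The intervals of shTrim28 and shWtx overlapped for each of the 3. The lower bounds in shWtx lay between 1.04 and 1.18, and there DESeq2's Wald test called none of the 3 (adjusted p from 0.167 to 0.234). The most abundant tRNA elements, tRNA-Glu-GAG_ and tRNA-Leu-TTA(m), passed in no comparison. tRNA-Glu-GAG_ stood at 193 and 94.6 CPM in shTrim28, 155 and 115 CPM in shWtx and 214 CPM in shGFP, with all 4 shTrim28 and shWtx libraries below the control. tRNA-Leu-TTA(m), also mitochondrial by its name, stood at 140 and 168 CPM in shTrim28, 86.9 and 121 CPM in shWtx and 65.5 CPM in shGFP, with all 4 above the control. Extraction was by a column kit, which can lose short RNAs, so no level of a single tRNA is compared with that of a longer RNA.

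Set against polymerase I within each library, the polymerase III sum was lower and the polymerase II sum higher than in shGFP. In shWtx the higher polymerase II sum rested on U14, as given below. There were 0.0636 and 0.0603 polymerase III reads per polymerase I read in shTrim28, 0.0567 and 0.0605 in shWtx and 0.0829 in shGFP, so that every shTrim28 and shWtx library was below the control. There were 0.0590 and 0.0492 polymerase II reads, from U1 to U17, per polymerase I read in shTrim28, 0.0572 and 0.0587 in shWtx and 0.0386 in shGFP, with all 4 shTrim28 and shWtx libraries above the control. These are ratios of reads, not corrected for length, and they were not tested. They set short RNAs such as tRNA, U14 and the Y RNAs against the long rRNAs. A loss of short RNAs on the column that differed between libraries would enter them and was not tested. Relative to gene reads and to shGFP, polymerase II RNAs with a gene of their own were 2.01 and 2.72 times as high in shTrim28. In shWtx they were 1.18 and 0.963 times as high. The sum of U14 and U17, from host introns, was 2.61 and 1.82 times in shTrim28 and 2.22 and 2.25 times in shWtx. Nearly all of it was U14 (10130 and 10283 of 10265 and 10407 CPM in shWtx). U17 went the other way, at 0.294 to 0.410 times the control. Polymerase I was 1.46 and 1.87 times in shTrim28 and 1.06 and 0.953 times in shWtx. In shWtx the RNAs with a gene of their own thus stood about where polymerase I did. The higher polymerase II sum there came with U14, and the ratio without U14 was not calculated. Without 7SLRNA and LSU-rRNA_Hsa the direction of the polymerase III ratio reversed, with log2 differences of 0.72 for shTrim28 and 0.66 for shWtx against shGFP in place of −0.42 and −0.50. Without U4 and LSU-rRNA_Hsa, but with U14 kept, the polymerase II differences grew to 0.89 and 1.49, in place of 0.48 and 0.58. Leaving out LSU-rRNA_Hsa makes SSU-rRNA_Hsa alone the polymerase I sum. Both changes therefore include the difference from shGFP in LSU reads per SSU read, and its part was not separated. Within polymerase III itself there were 2.15 and 3.32 reads of 7SLRNA per read of 4.5SRNA in shTrim28, 3.09 and 2.76 in shWtx and 5.40 in shGFP. All 4 shTrim28 and shWtx libraries were below the control in this ratio, with intervals that did not reach that of shGFP. A loss of short RNAs on the column may enter this ratio too and was not tested.

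**Figure D4:**
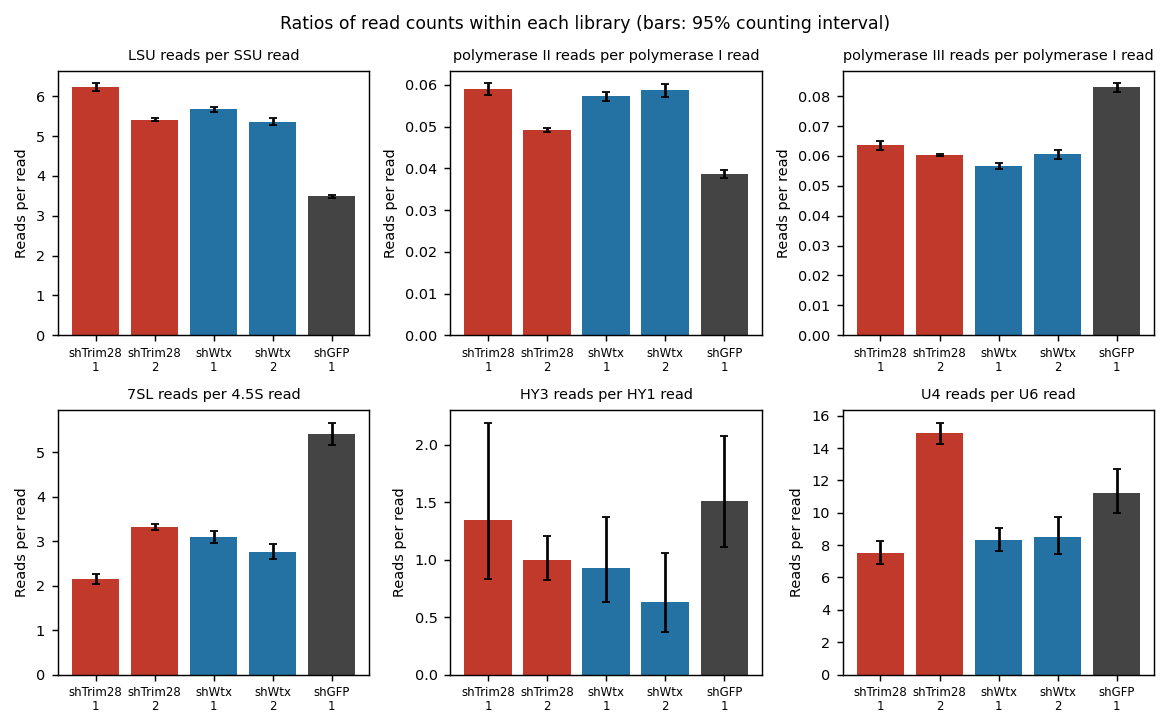
Ratios of read counts within each library, which do not depend on scaling between libraries, with exact 95% counting intervals. The LSU to SSU ratio is between 5.37 and 6.23 in the shTrim28 and shWtx libraries and 3.49 in shGFP, and the ratio of 7SL to 4.5S is between 2.15 and 3.32 in the shTrim28 and shWtx libraries and 5.40 in shGFP.

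Protein partners of the structural RNAs, their polymerases and the hosts of small nucleolar RNAs were followed in the gene table as lists of 183 genes, of which 178 were tested. In shTrim28 against shGFP, 0 of 178 were higher and 4 lower at an edgeR adjusted p under 0.05, beside 4.27% of all genes higher and 2.26% lower, and the median log2 fold change was −0.31 against 0.16 for all genes. The 4 were Rrn3, the factor that makes polymerase I able to start (−1.20), Cpsf3l, the nuclease of Integrator that cuts the 3′ ends of spliceosomal RNAs (−1.42), Nhp2, a core protein of H/ACA particles such as U17 (−0.94), and Rpp25, a subunit of RNase P, which trims tRNA (−2.64). Their SEs were between 0.28 and 0.46 and their adjusted p between 0.000405 and 0.0480.

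In shWtx against shGFP, 1 of 178 was higher and 22 were lower, beside 10.9% of all genes higher and 4.94% lower, with a median of −0.54 against 0.06 for all genes. The spliceosomal proteins had 0 of 35 higher and 8 lower, led by Lsm4 (−1.32, SE 0.31, edgeR adjusted p = 0.00454) and the Sm protein Snrpg (−1.06, SE 0.26, adjusted p = 0.00675). The rest were Nhp2l1, Snrpe, Lsm7, Snrpf, Snrpd1 and Snrpa1 (−1.01 to −0.84). Snrpg stood at 546 and 757 CPM in shTrim28, 483 and 519 CPM in shWtx and 1045 CPM in shGFP, and all 4 shTrim28 and shWtx libraries were below the control. The proteins of box H/ACA and box C/D particles had 0 of 19 higher and 2 lower, Nop10 (−1.12, SE 0.28, adjusted p = 0.00675), which binds U17 and its kin, and Npm1 (−0.76, SE 0.26, adjusted p = 0.0455). Ssb, the La protein that binds the T runs of new polymerase III transcripts, was lower (−0.95, SE 0.29, adjusted p = 0.0264), as were Cdk9, the kinase held by 7SK (−1.37, SE 0.41, adjusted p = 0.0236), and the polymerase I factors Rrn3 (−0.93, adjusted p = 0.0454) and Cd3eap (−1.31, adjusted p = 0.0489). Cpsf3l (−1.32, adjusted p = 0.0453) and Rpp25 (−1.27, adjusted p = 0.0458) were lower here as in shTrim28. The host genes had 0 of 15 higher and 6 lower, among them the translation genes Rps13, Eef2, Rpsa, Rps3 and Rpl7a (−0.94 to −0.77). Of polymerase III and its factors 0 of 21 and of the signal recognition particle 0 of 9 passed edgeR's test in either comparison with shGFP. Rpp40, also of RNase P, was the 1 partner gene higher in shWtx (1.42, SE 0.42, adjusted p = 0.0205).

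In shTrim28 against shWtx, 4 of 178 were higher and 5 lower, beside 5.45% of all genes higher and 9.83% lower, with a median of 0.20 against 0.02 for all genes. Higher were the spliceosomal Sf3a2 (1.09, SE 0.33, edgeR adjusted p = 0.0250) and the hosts Rps13, Eef2 and Tpt1 (0.66 to 0.89, adjusted p from 0.0103 to 0.0396). Lower were Ccnt1, the cyclin of P-TEFb (−0.76, SE 0.23, adjusted p = 0.0234), the Integrator subunit Ints6, Rpp25, the tRNA synthetase subunit Farsa and the host Snhg11 (−1.38 to −0.79, adjusted p from 0.0239 to 0.0496). The lists were lower at the median in shTrim28 and in shWtx against shGFP, as were the embryonic stem cell markers, with 7 of 8 lower in shTrim28 and 4 of 8 in shWtx, and the part of these in the partner genes was not tested. The partner counts rest on few libraries too. They ran from 0 to 7 in shTrim28 against shGFP and from 0 to 45 in shWtx against shGFP as single libraries were left out, with 0 in both without shTrim28 replicate 1 (21 and 51 at an unadjusted p under 0.05 by edgeR). Without shTrim28 replicate 2 they were 7 and 45, without shWtx replicate 1 they were 2 and 2, and without shWtx replicate 2 they were 4 and 10. For shTrim28 against shWtx edgeR called 0 partner genes without shTrim28 replicate 1 (24 at that p), without shTrim28 replicate 2 (14) or without shWtx replicate 1 (14), 3 without shWtx replicate 2 and 5 without shGFP.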

How the data were processed

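RNA of 5 libraries was sequenced as single molecules. The authors aligned reads to RefSeq for genes and to Repbase for repeats, per the series' design text, and deposited an estimated count per gene and per repeat element; the submitters' processing notes name mm9, and aligner, counter and strandedness were not given in the sources used. Estimated counts were rounded and tested with edgeR 4.0.16 (R 4.3.3, quasi-likelihood, all 5 libraries in 1 fit with 2 residual degrees of freedom, Benjamini-Hochberg over all 900 repeats or 10878 genes tested, threshold 0.05, filterByExpr). Repeats were scaled by the effective library sizes (TMM) of the gene table, and CPM uses these as totals. Intervals are exact 95% and cover counting error only. Python 3.11.15, pandas 2.3.3 and scipy 1.17.1 made sums and ratios, and the scripts were tested on simulated data. DESeq2 1.42.0, limma 3.58.1, other scalings, no filter, fits of 2 groups and leaving out each library were alternatives. Members are named if they passed the threshold in any comparison, are among the 6 markers, or are among the 2 most abundant of their class. U2, U3, U5, U13, HY4 and HY5 are given as ranges or counts. 5S and HY1 were added after their values were seen, and tRNA-Cys-TGY for how it entered the test. Partner genes are named if past the threshold. The members and lists were chosen with earlier results of these data known. A further host gene and a further sequence are not reported here.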

Additional observations from a re-analysis of the deposited data

How the results depend on the processing

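No paired analysis was possible because the hairpins of the groups share no pairing. Counts are given in the order shTrim28 against shGFP, shWtx against shGFP, shTrim28 against shWtx. Structural RNAs called numbered 4, 8 and 8. They were 7, 4 and 5 with DESeq2's Wald test, 5 in shWtx against shGFP with limma-voom, and 5 in shTrim28 against shWtx without TMM. Scaled by the TMM of the repeats or their DESeq2 size factors they were 5, 21 and 4, and by DNA transposon counts 2, 18 and 5, all lower against shGFP and all higher in shTrim28 against shWtx. Of all 900 repeats, 23 were lower in shTrim28 and 99 in shWtx under the TMM of the repeats, and 18 and 48 higher. With only the 2 groups compared, edgeR called 0 in shTrim28 against shGFP (1 at an unadjusted p under 0.05). Leaving out 1 library gave 0 to 9, 0 to 10 and 0 to 11. Partner genes called numbered 4, 23 and 9. They were 1, 11 and 4 with the Wald test, 1 in each without a filter, 12 and 53 against shGFP with DESeq2 size factors, 42 and 5 in the comparisons with shWtx with only 2 groups, 5 in shTrim28 against shWtx without shGFP, and 0 to 7, 0 to 45 and 0 to 5 without 1 library.

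Of 384 values for 29 single results, 43 reversed, 102 lost the call, 15 gained one and 224 did neither; the cause was not tested. With DESeq2 size factors of the gene table, 7SLRNA in shTrim28 against shGFP was −0.088, and in shWtx against shGFP LSU-rRNA_Hsa was −0.054, U1 −0.15 and U4 −0.12. For the TMM of the repeats, their size factors and DNA transposon counts in turn, 7SLRNA in shTrim28 against shGFP was −0.99, −0.96 and −1.02, and LSU-rRNA_Hsa was −0.21, −0.18 and −0.23. In shWtx against shGFP, LSU-rRNA_Hsa was −1.99, −1.96 and −1.83, U1 −2.08, −2.05 and −1.91, U4 −2.06, −2.03 and −1.90, U14 −0.86, −0.83 and −0.70, tRNA-Ala-GCY_ −0.73, −0.71 and −0.58, tRNA-Asp-GAY −0.64, −0.62 and −0.50, and tRNA-Lys-AAG −0.31, −0.29 and −0.17. tRNA-Gln-CAA_ was −0.040 and −0.015 in the first 2 of these. In shTrim28 against shWtx, U17 was 0.86, 0.86 and 0.69, and tRNA-Ala-GCA was 0.10 and 0.095 in the first 2. Without 1 library, 7SLRNA in shTrim28 against shGFP ran from −0.24 to 0.32, U4 and U1 in shWtx against shGFP from −0.11 to 0.20 and from −0.11 to 0.14, U17 in shTrim28 against shWtx from −0.37 to 0.047, LSU reads per SSU read there from −0.027 to 0.17, and polymerase II reads per polymerase I read there from −0.24 to 0.026 on the log2 scale. Without the most abundant elements, polymerase III per polymerase I was 0.72 in shTrim28 and 0.66 in shWtx against shGFP, and polymerase II per polymerase I was 0.89, 1.49 and −0.60. Members with few reads, above all the 46 untested tRNA elements, allow no statement at this depth.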
